A study of Danio rerio with 20 samples.

Results

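The 150 loci described here were raised over non-injured heart tissue at all time points after cryoinjury, and their group means at those time points lay within about 2-fold of each other. They were chosen by their measured values, out of 66128 loci in a table of RNA-sequencing values from apexes of zebrafish ventricles. A locus had to average at least 100 scaled reads over the 20 libraries and at least 5 in the non-injured libraries, and its lowest value among the 16 injured libraries had to be above its highest value among the 4 non-injured libraries. The means of the 4 injured groups had to lie within 1 of each other on a log2(value + 1) scale, where 1 is a change of about 2-fold. The 100 loci highest in non-injured tissue were to be left out, and the rest were ranked by the smallest of their 4 rises. A rise is the mean of log2(value + 1) at a time point minus that of the non-injured group, and rank 1 is the locus whose smallest rise was the largest. All contrasts with non-injured apexes were therefore used in the choice, and so were the levels of the 4 injured groups, and they are given here as a description.

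The libraries were made from apexes of wild-type zebrafish hearts, in 5 groups of 4: non-injured, and injured hearts taken after 1.5, 3, 7 and 14 days (days post cryoinjury, dpci). Each library pooled 3 to 4 apexes, so a value is an average over several animals, and the labels used here give neither age nor sex. Per the methods, fish of both sexes and of a range of ages in months were used. Which of them went into which library is not stated. In cryoinjury a piece of the ventricle wall is killed with a frozen probe. The zebrafish heart then clears the dead tissue, lays down a transient fibrotic scar, and replaces much of it with new heart muscle, which adult mammalian hearts largely fail to do. Immune cells enter early in this course, epicardium, endocardium and fibroblasts become active around the wound, and cardiomyocytes next to it divide. Loci that stay raised over the whole course therefore span phases in which the cell makeup of the apex is known to change, and in a bulk library more cells of a type and more RNA per cell cannot be told apart.

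A locus is a transcribed unit assembled by the authors' pipeline and numbered by it. The numbers were not paired with gene names in the tables used here, so no gene, function or cell type is given for any member, the labelled tissue could not be checked against its marker genes, and members are called by their rank. XLOC_052430 is rank 1 and XLOC_019555 is rank 2. The unit of the values is reads counted on a locus divided by one factor for its library. They are not divided by length, so that levels are compared between libraries for one locus and not between loci. The reads recovered from 19 libraries numbered 19349171 to 32939803 per library. Replicates are libraries from separate pools as far as the labels and methods tell. The p-values below judge differences of group means against the spread between replicate libraries. That spread was estimated over all groups together and with information shared across loci, so it is not the spread of a single group.

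The libraries did not separate by injury alone. The first principal component held 31.5% of the variance and put non-injured replicates 1 and 2 on the side of all 8 libraries at 7 and 14 dpci, and non-injured replicates 3 and 4 on the side of all 8 libraries at 1.5 and 3 dpci. Non-injured replicate 2 was the library nearest the middle of this component, at 44.79, while those at 7 and 14 dpci lay at 118 to 166.1. Its side is therefore the least clear. What the 2 sides differ in is not given by the labels, and 3 and 7 dpci lie on opposite sides. Non-injured replicate 2 and 14 dpci replicate 1 also had a large part in which loci were taken, as described with the choice of the set below.

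Of all loci, 16199 averaged 100 or more, 12 of these fell below the non-injured minimum, and 16187 were left, which are called the eligible loci below. Among these, 381 (2.35%) had all injured libraries above all non-injured libraries. The injured group means lay within 1 of each other in 212 of the 381 (55.6%), and in 169 they were further apart. No locus was lost as one of the 100 highest, and the 150 first in rank were taken and 62 ranked below them. By level, 32 members averaged under 200 scaled reads over the 20 libraries, 76 from 200 to 1000, and 42 reached 1000 or more.

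**Figure D1:**
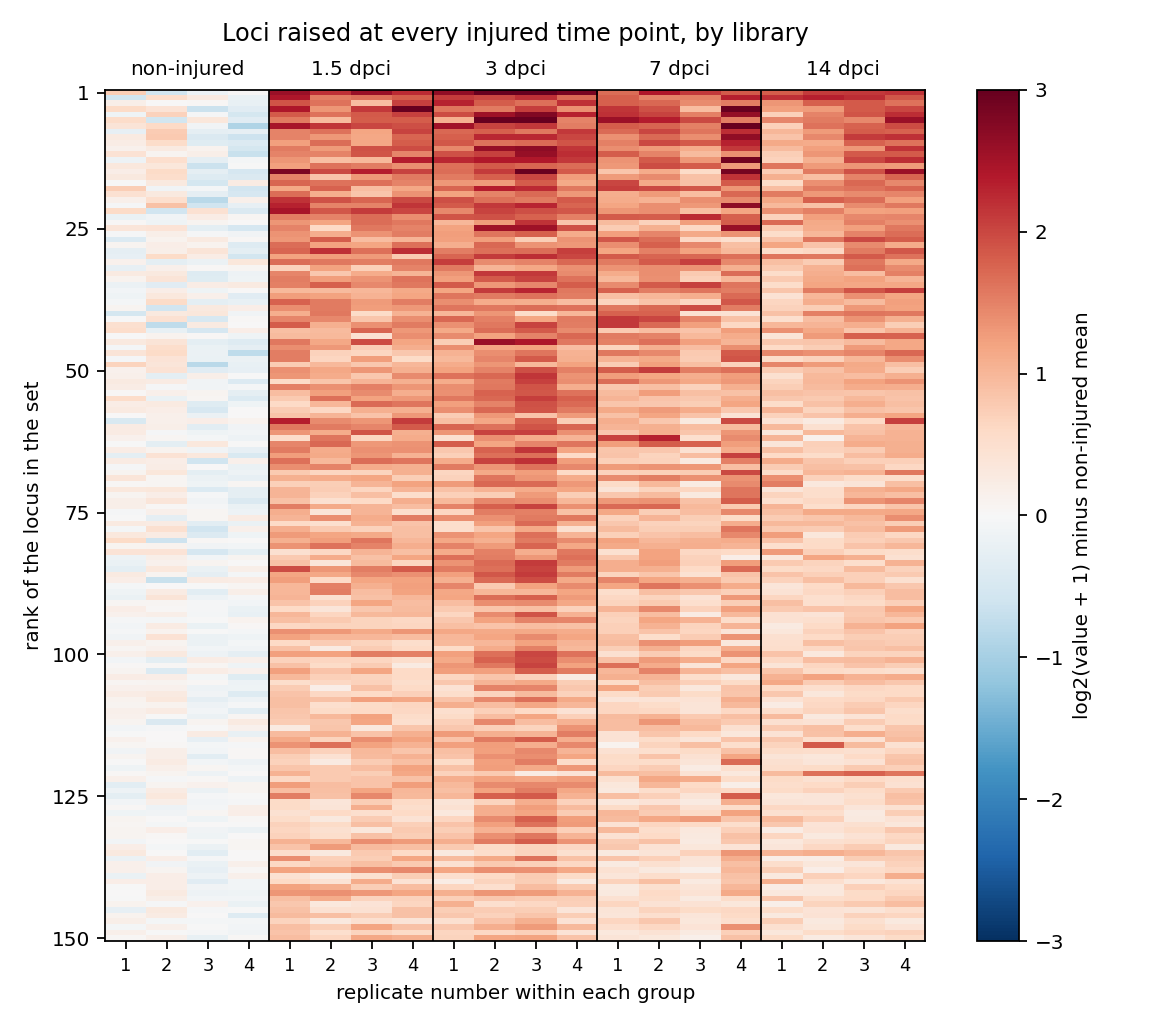
Each row is 1 of the 150 loci in order of rank and each column 1 library, and the colour is log2(value + 1) minus the mean of the 4 non-injured libraries for that locus. All injured columns are above the non-injured columns in every row, as the choice of the loci requires, and 3 dpci replicate 3 has the largest median rise of any library at 1.57.

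The members were raised by about 2-fold in the middle of the set. The median rise was 1.07 at 1.5 dpci, 1.31 at 3 dpci, 0.99 at 7 dpci and 0.82 at 14 dpci on the log2(value + 1) scale, while the medians over all eligible loci were -0.06, -0.04, -0.04 and -0.00. Rises of 1 or more were found in 85, 118, 74 and 46 members at the 4 time points in turn, and 36 members had them at all time points. The smallest rise of a member ran between 0.44 and 2.01 with a median of 0.75. The 169 raised loci with wider differences between time points had median rises of 1.82, 2.66, 1.77 and 1.24, larger than those of the members at each time point.

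The members' share of a library was small at every time. Their values summed to 0.277% ± 0.0417 of all values in the non-injured libraries, 0.772% ± 0.0436 at 1.5 dpci, 0.851% ± 0.0784 at 3 dpci, 0.586% ± 0.0656 at 7 dpci and 0.513% ± 0.0795 at 14 dpci (SD, n = 4 each). The lowest injured share was 0.429% in 14 dpci replicate 1, against a highest non-injured share of 0.337% in replicate 2. The sums themselves averaged 79122, 169666, 200014, 153311 and 137669 scaled reads from non-injured to 14 dpci. Library totals, by which the share divides, were mostly lower at 1.5 and 3 dpci (20815490 to 25163080) than in non-injured libraries (24984991 to 30779426). The share therefore rose by more than the sums at these times. It also counts the loci with high values most. By the median member instead, the rise was 1.08, 0.98, 1.07 and 1.08 in the 4 libraries at 1.5 dpci and 1.11, 1.41, 1.57 and 1.26 at 3 dpci. It was 0.93, 1.05, 0.77 and 1.11 at 7 dpci and 0.71, 0.73, 0.92 and 0.93 at 14 dpci. Libraries at 1.5 dpci were close to each other, those at 3 dpci spread the most, and no library at 14 dpci reached the lowest at 1.5 dpci.

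A test of each time point against non-injured apexes was run with limma over 62594 loci with Benjamini-Hochberg adjustment, and a locus is called where the adjusted p is under 0.05. The members called higher numbered 147 of 150 at 1.5 dpci, where 12.8% of all tested loci were called higher, 147 at 3 dpci (12.9% of all), 138 at 7 dpci (6.43% of all) and 128 at 14 dpci (5.88% of all). These contrasts chose the members, and nothing is read from the counts. The call held at all 4 time points in 116 members, at 3 of them in 28 and at 2 of them in 6, and 1.41% of all loci were called at all 4. Of the members described below, ranks 59 and 150 were called higher neither at 7 nor at 14 dpci. Ranks 25 and 62 were not called at 14 dpci, ranks 121 and 135 not at 3 dpci, and rank 143 not at 7 dpci. Taking only non-injured replicates 1 and 2 as controls left 109, 134, 53 and 30 members called, and 9.1%, 10.4%, 1.65% and 0.826% of all loci. Only replicates 3 and 4 left 134, 143, 134 and 122 members, and 10.3%, 10%, 10.5% and 10.2% of all loci. With the side of the first component as a term in the model the counts were 133, 144, 59 and 34 members, and 9.93%, 9.74%, 1.73% and 0.883% of all loci.

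The highest-ranked locus had its highest values at 3 dpci. XLOC_052430, rank 1, had 291.7, 115.5, 156.2 and 178.3 scaled reads in the 4 non-injured libraries, then 1051, 808.5, 1052 and 836.0 at 1.5 dpci. At 3 dpci it had 1120, 1449, 1640 and 1264, at 7 dpci 565.0, 932.5, 762.2 and 631.1, and at 14 dpci 617.5, 746.6, 763.0 and 789.7. No injured library was below 565.0 and no non-injured library above 291.7, a ratio of 1.94. Its rises were 2.40, 2.94, 2.01 and 2.05. All 4 libraries at 3 dpci were above all those at 1.5, 7 and 14 dpci, and 7 dpci was lower than 3 dpci by limma (difference -0.93 ± 0.22 SE, adjusted p = 0.00522), a call kept under 30 of 31 alternatives (0.000832 to 0.252) and lost with the side of the first component as a term.

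The locus of rank 2 was more even over the injured groups. XLOC_019555, rank 2, had 45.5, 99.7, 84.2 and 59.8 scaled reads in the 4 non-injured libraries, then 376.3, 201.8, 216.3 and 246.5 at 1.5 dpci. Libraries at 3 dpci had 298.2, 281.2, 321.6 and 225.6, at 7 dpci 240.4, 195.0, 198.9 and 351.6, and at 14 dpci 321.9, 354.6, 324.2 and 253.7. The lowest injured value, 195.0 in 7 dpci replicate 2, was 1.96 times the highest non-injured value. Its rises were 1.85, 2.0, 1.78 and 2.15, a range of 0.38, and the F test among the 4 injured groups gave an adjusted p of 0.542 with limma.

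In rank 3 the injured means spanned 0.37, with 48.0 ± 5.59 scaled reads in non-injured apexes, 155.9 ± 47.7 at 1.5 dpci, 196.4 ± 41.7 at 3 dpci, 150.3 ± 18.1 at 7 dpci and 153.5 ± 24.3 at 14 dpci (SD, n = 4 each). Its rises were 1.63, 1.99, 1.63 and 1.65. Rank 5 was less even, with 385.7 ± 147.5, 1319 ± 157.9, 1977 ± 457.3, 1634 ± 514.5 and 1180 ± 474.0 scaled reads in the same order. Its lowest injured library, 14 dpci replicate 1 with 603.2, lay just above its highest non-injured library, replicate 2 with 597.5. These 2 libraries nearly closed the gap that the choice required.

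Ranks 4 and 7 had the lowest non-injured means of the set. Rank 4 had 55.6, 49.4, 23.3 and 28.7 scaled reads in the 4 non-injured libraries, then 202.8, 94.1, 163.8 and 388.2 at 1.5 dpci. At 3 dpci this locus had 114.6, 111.0, 157.3 and 97.2, at 7 dpci 166.3, 142.4, 71.4 and 460.1, and at 14 dpci 88.2, 90.2, 135.4 and 151.4. Replicate 4 was the highest library at 1.5 and at 7 dpci, and the SD of the locus at 7 dpci (171.5) was nearly as large as its mean there (210.0). Rank 7 had 45.5, 52.3, 32.1 and 18.0 scaled reads in the 4 non-injured libraries, then 196.4, 154.2, 139.9 and 134.2 at 1.5 dpci. At 3 dpci it had 201.5, 143.4, 152.9 and 100.9, at 7 dpci 124.2, 118.3, 99.5 and 281.4, and at 14 dpci 57.2, 107.4, 119.6 and 136.0. In both loci non-injured replicates 1 and 2 were above replicates 3 and 4, by 0.99 on the log2(value + 1) scale. The rises were 2.31, 1.65, 2.15 and 1.59 in rank 4 and 2.14, 2.05, 2.02 and 1.52 in rank 7.

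**Figure D2:**
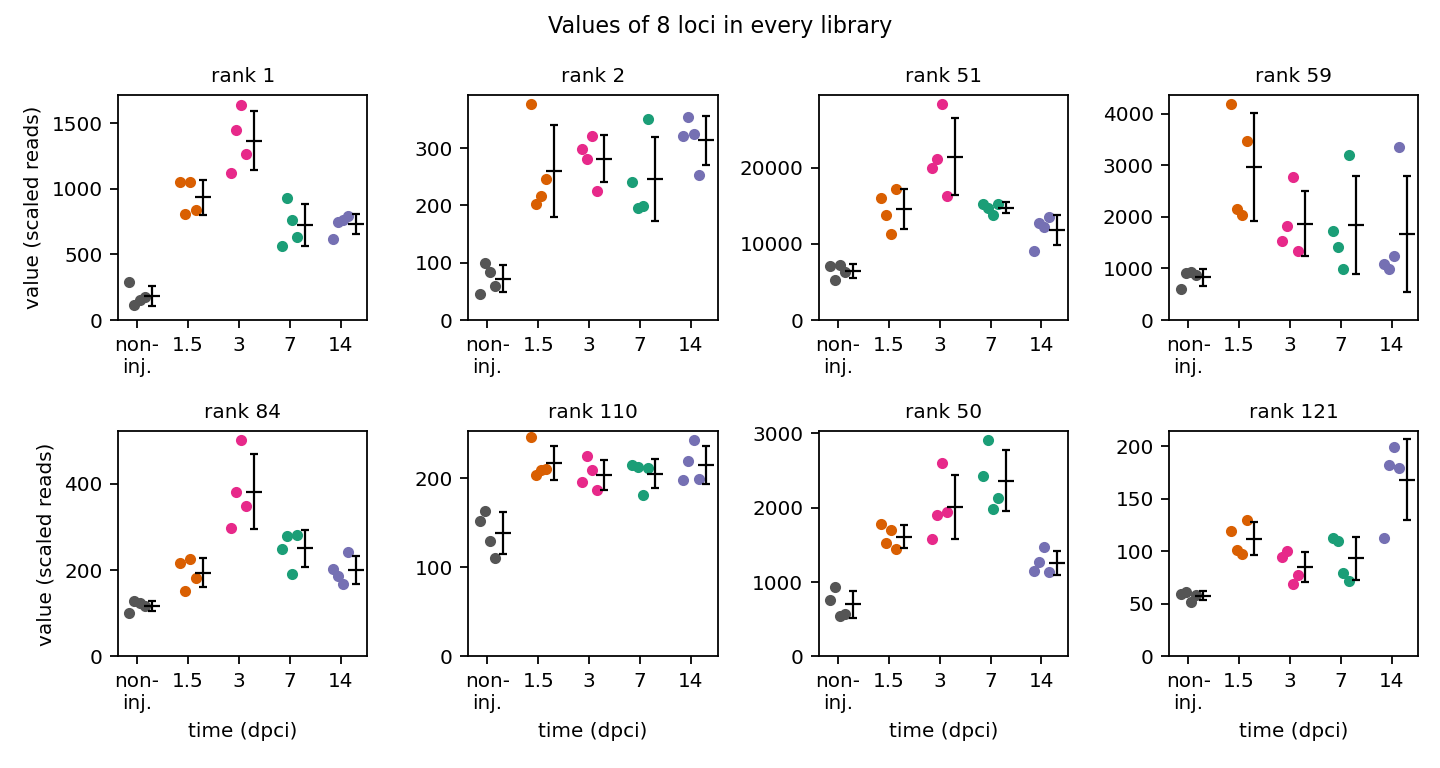
Scaled reads (reads divided by the factor of the library) of 8 loci in each library, by time in dpci after the non-injured group, with the group mean and SD (n = 4) beside the points. Ranks 1, 51 and 84 are highest at 3 dpci, rank 59 at 1.5 dpci, rank 50 at 7 dpci and ranks 2 and 121 at 14 dpci, while the 4 injured groups of rank 110 lie at about the same level.

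Although the differences between injured groups were limited to 1, the members were not all alike in time. By the F test below, 43.3% of them differed between time points, against 49.3% of the eligible loci. The limit itself favours a lower share, and nothing is read from it. The mean was highest at 1.5 dpci in 26 members, at 3 dpci in 93 (62.0%), at 7 dpci in 20 and at 14 dpci in 11. At 7 dpci this was 13.3% of the members, against 15.9% of the eligible loci. The other counts of members here have no share of the eligible loci beside them, and they only describe the set. The mean was lowest of the injured groups at 14 dpci in 82, at 7 dpci in 33, at 1.5 dpci in 27 and at 3 dpci in 8. In 134 members the mean at 14 dpci was below that at 3 dpci, and 67 followed one order, with 3 dpci above 1.5 dpci and a descent from there over 7 to 14 dpci. Of the 169 raised loci with wider differences, 142 (84.0%) were highest at 3 dpci, 22 at 1.5 dpci, 5 at 7 dpci and none (0) at 14 dpci. The rise at 14 dpci was between 34.2% and 100% of the largest rise of the locus, with a median of 60.8%.

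**Figure D3:**
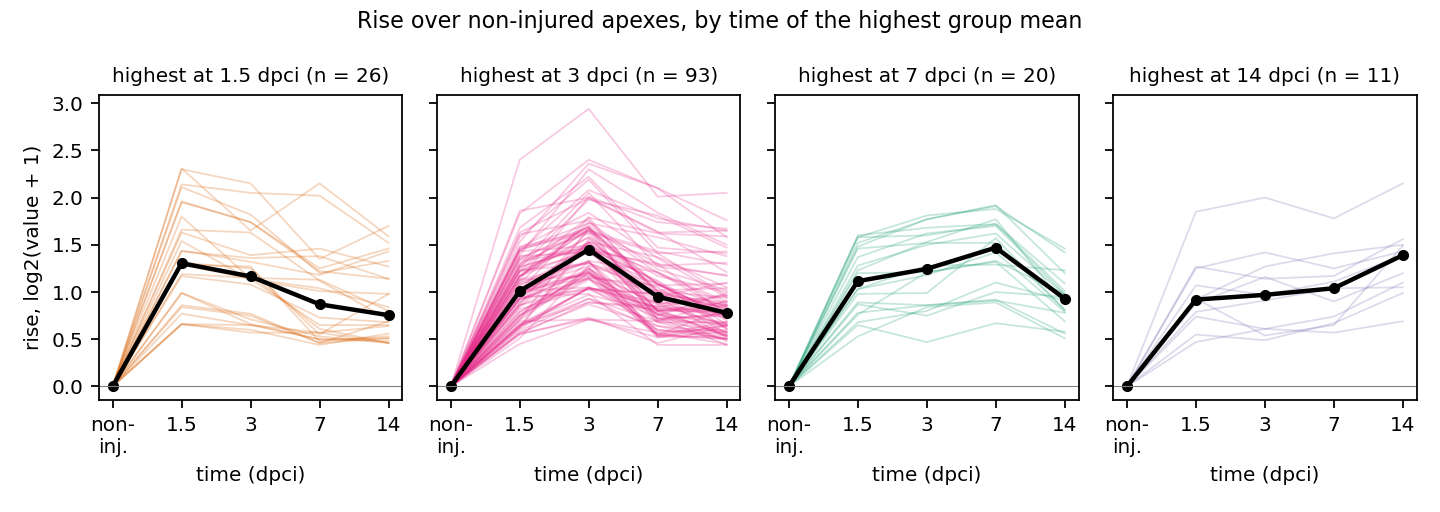
Rise over the non-injured mean on the log2(value + 1) scale by time (dpci), 1 thin line for each locus and a black line for the median, with the members parted by the time of their highest group mean. The 93 loci highest at 3 dpci have median rises of 1.01, 1.45, 0.95 and 0.78 over the 4 time points, and the 11 loci highest at 14 dpci have 0.92, 0.97, 1.04 and 1.39.

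Parted by the time of the highest mean, the loci that peaked at 1.5 dpci had median rises of 1.30, 1.16, 0.87 and 0.76 over the course, and those that peaked at 7 dpci had 1.12, 1.25, 1.47 and 0.93. The peak stood 0.40, 0.47, 0.29 and 0.30 above the mean of the other injured groups in the median locus of the 4 classes, from 1.5 to 14 dpci. These classes were made from the means that they describe, and where the means differed by less than the replicate spread the class of a locus is not certain. The range of the 4 injured means was 0.09 to 1.0 with a median of 0.62, under 0.5 in 55 members and over 0.9 in 17. For scale, the SD between replicates of a member had a median of 0.22 to 0.29 in the 5 groups.

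By the F test among the 4 injured groups (limma, Benjamini-Hochberg over 62594 loci), 65 of 150 members (43.3%) differed between time points, against 40.0% of all tested loci and 49.3% of the eligible loci. The choice bounded the size of these differences, and the count is a description. It comprised 47 of the loci highest at 3 dpci, 11 of those highest at 1.5 dpci, 6 of those highest at 7 dpci and 1 of those highest at 14 dpci. Of the 65, 38 were called whichever 1 of the 20 libraries was left out. By edgeR on recovered reads, which called 36.4% of all loci, 57 of them were also called. With the side of the first component as a term, 21 members and 11.1% of all loci were called. No member was called by the F test with a difference of 2-fold or more between its highest and lowest time point (0 of 150), since the limit of 1 leaves none beyond it.

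Of the steps from one time point to the next, that between 3 and 7 dpci held the most calls. From 1.5 to 3 dpci 11 members (7.33%) were higher at 3 dpci by limma. This was so in 4.86% of all loci and 7.34% of the eligible loci. The higher mean was at 3 dpci in 116 of 150 members, and in 51.6% of the eligible loci. No member was called lower at 3 dpci (0 by limma, 0 by limma-voom and 0 by edgeR). By limma 4.57% of all loci and 4.21% of the eligible ones were called lower. At an unadjusted limma p under 0.05, 1 member was lower, against 10.5% of the eligible loci. The count of 11 members higher at 3 dpci became 7 without 1.5 dpci replicate 1, 6 without 3 dpci replicate 2, 4 without 3 dpci replicate 3 and 7 without 3 dpci replicate 4, and 4 of them were called whichever 1 library was left out. All 11 were also called by edgeR on recovered reads, which called 4.14% of all loci.

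At 7 dpci 36 members (24.0%) were lower than at 3 dpci, where 9.31% of all loci and 10.1% of the eligible loci were. The median difference of 7 minus 3 dpci was -0.28 in the members and 0.02 in the eligible loci. On the lower side were 119 of the 150, and 48.5% of the eligible loci. By limma none (0) was called higher at 7 dpci, against 8.44% of all loci and 13.0% of the eligible ones. Without 7 dpci replicate 3, 1 member was. The count was also 0 by limma-voom, which called 7.12% of all loci, and 0 by edgeR, which called 6.12%. At an unadjusted limma p under 0.05 it was 0 as well, against 21% of the eligible loci. The limit of 1 on the injured group means favours low counts in either direction, and nothing is read from these counts of 0. Leaving out single libraries gave 24 to 41 members called lower, with 20 called whichever 1 was left out. With edgeR 21 members were called, all among the 36, and 5.28% of all loci. That test, like limma-voom, was run without 7 dpci replicate 1, so method and library changed together. The groups at 3 and 7 dpci lie on opposite sides of the first component, and the side can be estimated beside time only through the 2 non-injured libraries on each side. With the side as a term (an alternative chosen after seeing the data) 3 members were called lower at 7 dpci, 2 of them among the 36, and the share of all loci was 0.249%. The median difference was then -0.50 in the members and 0.05 in the eligible loci, 133 members were on the lower side, and the median SE of a member was 0.34, against 0.20 without the term. The term was estimated from the non-injured libraries, whose values were used in the choice. Their replicates 1 and 2 were above 3 and 4 in most members (79.3%, eligible loci 44.5%), which moves this difference down. The larger difference is therefore not read as a stronger decline.

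At 14 dpci 1 member, rank 50, was lower than at 7 dpci, where 0.299% of all loci and 0.704% of the eligible loci were. No member was called higher (0 by limma, limma-voom and edgeR), where 0.105% of all loci and 0.148% of the eligible ones were by limma. Without 14 dpci replicate 1, 1 member was called higher. At an unadjusted limma p under 0.05, 2 members were higher, against 7.8% of the eligible loci. The means nonetheless leaned one way, with 102 members lower and 48 higher at 14 than at 7 dpci. Of the eligible loci 48.1% were lower. At an unadjusted limma p under 0.05, 19 members were lower, against 8.33% of the eligible loci. The single call was absent without 7 dpci replicate 2, 14 dpci replicate 2 or 14 dpci replicate 4 (0 members each), and 2 members were called without 14 dpci replicate 1. In all, 109 members were called in none of the 3 steps, and 84 neither in a step nor by the F test. These counts have no share of the eligible loci beside them, and the limit of 1 favours them, so they only describe the set.

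Among the members the mean at 3 dpci stood furthest above the average of the remaining injured groups in rank 84, by 0.83. Rank 84 had 101.0, 127.4, 123.0 and 117.3 scaled reads in the 4 non-injured libraries, then 216.5, 150.8, 226.6 and 182.8 at 1.5 dpci. Libraries at 3 dpci had 297.4, 381.1, 501.9 and 348.5, at 7 dpci 248.4, 279.4, 191.4 and 281.4, and at 14 dpci 202.7, 187.4, 168.0 and 242.4. All 4 libraries at 3 dpci were above the other 16. Its mean was higher at 3 dpci than at 1.5 dpci by limma (0.96 ± 0.19 SE, adjusted p = 0.00236), a call kept under all 31 alternatives. At 7 dpci it was lower than at 3 dpci (-0.60 ± 0.19 SE, limma adjusted p = 0.0306, 0.00742 to 0.597 over 31 alternatives). That call was lost under 8 of them: without 3 dpci replicate 2 or 3, without 7 dpci replicate 1 or 3, by limma-voom, by edgeR, with the 8 libraries alone and with the side of the first component as a term.

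Rank 25, named with it for its excess at 3 dpci, was much less certain. Rank 25 had 234.9, 241.9, 148.5 and 128.1 scaled reads in the 4 non-injured libraries, then 507.8, 273.3, 549.4 and 509.8 at 1.5 dpci. At 3 dpci this locus had 420.1, 1055, 1059 and 687.8, at 7 dpci 308.5, 379.1, 279.0 and 1122, and at 14 dpci 312.3, 391.0, 429.0 and 547.3. At 1.5 dpci replicate 2 was low and at 7 dpci replicate 4 was high, each far from the other 3 libraries of its group. The F test did not call it (limma adjusted p = 0.196), and its smallest rise of 1.18 was 0.81 without 7 dpci replicate 4.

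The 2 members with the highest mean over the injured libraries were also highest at 3 dpci. Rank 51 had 7151, 5232, 7209 and 6348 scaled reads in the 4 non-injured libraries, then 16003, 13850, 11342 and 17228 at 1.5 dpci. At 3 dpci it had 19961, 21162, 28445 and 16326, at 7 dpci 15306, 14695, 13754 and 15279, and at 14 dpci 9042, 12696, 12286 and 13566. The 3 dpci libraries overlapped those at 1.5 dpci only through replicate 4 (16326 at 3 dpci, against 17228 in 1.5 dpci replicate 4), and were all above those at 7 dpci. Its mean at 7 dpci was lower than at 3 dpci (-0.51 ± 0.16 SE, limma adjusted p = 0.032, 0.00249 to 0.678 over 31 alternatives), but the call was lost under 8 of them: without 3 dpci replicate 2 or 3, without 7 dpci replicate 1, 2 or 3, with the replicate block, by edgeR and with the side of the first component as a term. The call of a higher mean at 3 than at 1.5 dpci (0.54 ± 0.16 SE, limma adjusted p = 0.0374, 0.0185 to 0.151 over 31 alternatives) was lost under 9 of them: without 1.5 dpci replicate 2 or 3, without 3 dpci replicate 1, 2 or 3, by quantile normalization, with scaling to library totals, with the replicate block and with the 8 libraries alone.

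Rank 133 had 3519, 3740, 3699 and 3850 scaled reads in the 4 non-injured libraries, then 7684, 7258, 9660 and 8984 at 1.5 dpci. Libraries at 3 dpci had 7818, 10908, 13081 and 9421, at 7 dpci 6258, 6800, 4460 and 6450, and at 14 dpci 4603, 5159, 5347 and 5849. The non-injured libraries were close together, and every library at 7 and 14 dpci was below every library at 1.5 and 3 dpci. The locus had the lowest adjusted p among the named members in the F test (limma, 0.000131). At 7 dpci it was lower than at 3 dpci (difference -0.78 ± 0.15 SE, limma adjusted p = 0.00132), which held under 30 of 31 alternatives. With the side of the first component as a term both calls were lost (adjusted p = 0.104 in the F test and 0.27 for 7 against 3 dpci, limma).

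Ranks 22 and 59 were named for their excess at 1.5 dpci. Rank 22 had 790.0 ± 314.0 scaled reads in non-injured apexes, 3252 ± 624.3 at 1.5 dpci, 2646 ± 440.5 at 3 dpci, 1722 ± 254.7 at 7 dpci and 1874 ± 193.1 at 14 dpci (SD, n = 4 each), and differed among the injured groups (limma F test, adjusted p = 0.00606, and 0.343 with the side of the first component as a term). Its non-injured libraries fell into a higher pair (1101 and 1018 in replicates 1 and 3) and a lower pair (495.7 and 544.6 in replicates 2 and 4), which is not the pairing of the first component. Rank 59 had 593.6, 903.6, 936.2 and 868.9 scaled reads in the 4 non-injured libraries, then 4184, 2161, 2035 and 3482 at 1.5 dpci. At 3 dpci this locus had 1530, 1826, 2777 and 1347, at 7 dpci 1730, 1422, 999.0 and 3192, and at 14 dpci 1091, 986.7, 1239 and 3352. Single libraries stood high here at 7 and 14 dpci, replicate 4 both times. The F test did not call the locus (limma adjusted p = 0.176), and without 14 dpci replicate 4 its smallest rise was 0.44, against 0.84 with it.

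Peaks at 7 and 14 dpci were fewer. Rank 50 had 752.7, 927.3, 542.9 and 574.5 scaled reads in the 4 non-injured libraries, then 1775, 1529, 1699 and 1439 at 1.5 dpci. At 3 dpci it had 1583, 1908, 2604 and 1943, at 7 dpci 2426, 2909, 1983 and 2133, and at 14 dpci 1152, 1264, 1478 and 1136. The libraries at 7 dpci were all above those at 14 dpci. Here lay the one call of that step (14 minus 7 dpci: -0.90 ± 0.17 SE, limma adjusted p = 0.0212, 0.00897 to 0.153 over 31 alternatives), which was lost without 7 dpci replicate 2, without 14 dpci replicate 2 or 4, by limma-voom, by edgeR and with the 8 libraries alone.

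Rank 62, the other locus named for 7 dpci, had 452.8, 567.6, 158.9 and 300.6 scaled reads at 7 dpci, with a mean of 370.0 ± 178.2 (SD, n = 4). Its means were 111.4 ± 9.25 in non-injured apexes, 229.8 ± 81.8 at 1.5 dpci, 227.4 ± 54.1 at 3 dpci and 202.2 ± 53.1 at 14 dpci. Replicate 3 at 7 dpci lay below the mean of every other injured group, and the F test did not call the locus (limma adjusted p = 0.198). Its lowest injured library, 14 dpci replicate 2 with 122.6, was next to its highest non-injured library with 121.2.

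Rank 121 had 59.4, 61.2, 52.1 and 58.6 scaled reads in the 4 non-injured libraries, then 119.6, 100.9, 96.9 and 130.0 at 1.5 dpci. Libraries at 3 dpci had 94.3, 99.9, 68.9 and 77.0, at 7 dpci 112.2, 109.6, 78.9 and 72.0, and at 14 dpci 112.1, 182.3, 198.7 and 179.0. Its mean was lowest of the injured groups at 3 dpci and highest at the end, while 93 members were highest at 3 dpci and 82 were lowest at 14 dpci. The F test called it (limma adjusted p = 0.00443), while the step between 7 and 14 dpci missed the threshold (0.84 ± 0.21 SE, limma adjusted p = 0.0801), with 14 dpci replicate 1 at the level of 7 dpci and the other 3 libraries above it. Rank 135 had 319.1 ± 23.5 scaled reads at 14 dpci, after 162.0 ± 27.9 in non-injured apexes, 236.8 ± 34 at 1.5 dpci, 226.8 ± 24.1 at 3 dpci and 266.3 ± 94.4 at 7 dpci (SD, n = 4 each). Its lowest injured library (196.2) barely cleared its highest non-injured library (195.8), and the F test did not call it (limma adjusted p = 0.151).

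The flattest members were ranks 110 and 107. Rank 110 had 151.6, 162.9, 129.6 and 110.1 scaled reads in the 4 non-injured libraries, then 245.7, 203.0, 209.5 and 210.5 at 1.5 dpci. At 3 dpci this locus had 195.8, 224.8, 208.5 and 186.2, at 7 dpci 214.4, 212.6, 180.6 and 211.3, and at 14 dpci 197.9, 218.8, 243.1 and 199.5. The injured libraries lay between 180.6 and 245.7, and the 4 injured means spanned 0.09 on the log2(value + 1) scale. Rank 107 had 1898 ± 383.5 scaled reads in non-injured apexes and 3031 ± 263.5, 3066 ± 392.4, 3032 ± 284.4 and 2804 ± 363.5 from 1.5 to 14 dpci (SD, n = 4 each), a range of 0.13. Flatness came with small rises in both, 0.66, 0.57, 0.57 and 0.64 in rank 110 and 0.69, 0.71, 0.69 and 0.58 in rank 107. The adjusted p of the F test was 0.922 and 0.821 with limma, which does not show that the groups were equal.

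In most members non-injured replicates 1 and 2 were above replicates 3 and 4. The mean of replicates 1 and 2 minus that of replicates 3 and 4 had a median of 0.19 over the members (-0.50 to 1.05) and was above 0 in 119 of them (79.3%), against a median of -0.04 and 44.5% among the eligible loci. Measured over replicates 1 and 2 the median rises were 0.95, 1.24, 0.86 and 0.71, and over replicates 3 and 4 they were 1.17, 1.39, 1.1 and 0.91. Replicate 2 was the highest non-injured library in 81 members, replicate 1 in 43, replicate 3 in 16 and replicate 4 in 10.

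Ranks 9 and 49 showed this most. Rank 9 had 125.0, 181.7, 77.6 and 67.0 scaled reads in the 4 non-injured libraries, then 293.2, 257.4, 236.1 and 354.7 at 1.5 dpci. At 3 dpci it had 363.2, 506.0, 508.1 and 420.0, at 7 dpci 269.5, 338.6, 277.9 and 668.5, and at 14 dpci 190.7, 285.7, 449.7 and 477.7. Non-injured replicates 1 and 2 were above replicates 3 and 4 by 1.05, and the smallest rise of 1.43 became 0.90 over replicates 1 and 2 and 1.95 over replicates 3 and 4. Rank 49 had 636.5, 514.5, 230.5 and 343.5 scaled reads in the 4 non-injured libraries, then 677.7, 788.1, 709.1 and 797.4 at 1.5 dpci. Libraries at 3 dpci had 866.2, 1010, 790.8 and 931.7, at 7 dpci 678.2, 942.4, 756.8 and 651.2, and at 14 dpci 1106, 976.6, 879.7 and 757.0. The difference between the pairs was 1.02 here, larger than its smallest rise of 0.88, which was 0.37 over replicates 1 and 2 and 1.39 over replicates 3 and 4. The 7 dpci replicate 4 library, at 651.2, was 1.02 times the highest non-injured library. Ranks 35 and 39 went the other way, by -0.50 and -0.48, and both belong to the run of neighbouring loci described below.

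Which loci were taken depended on a few libraries at the edge of the gap between the groups. The lowest injured library of a member was at 14 dpci in 72 members (replicate 1 in 43 of them), at 7 dpci in 44, at 1.5 dpci in 28 and at 3 dpci in 6. That lowest value was between 1.0 and 1.96 times the highest non-injured value, with a median of 1.13. Without non-injured replicate 2, 576 loci met the conditions in place of 212. All 150 members were still among them, but only 16 were still in the first 150, whose smallest rise then ended at 1.43. Without 14 dpci replicate 1, 338 loci met the conditions and 76 members were ranked in, and without non-injured replicate 1 it was 346 and 102. With any other library left out, 131 to 148 members stayed in.

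**Figure D4:**
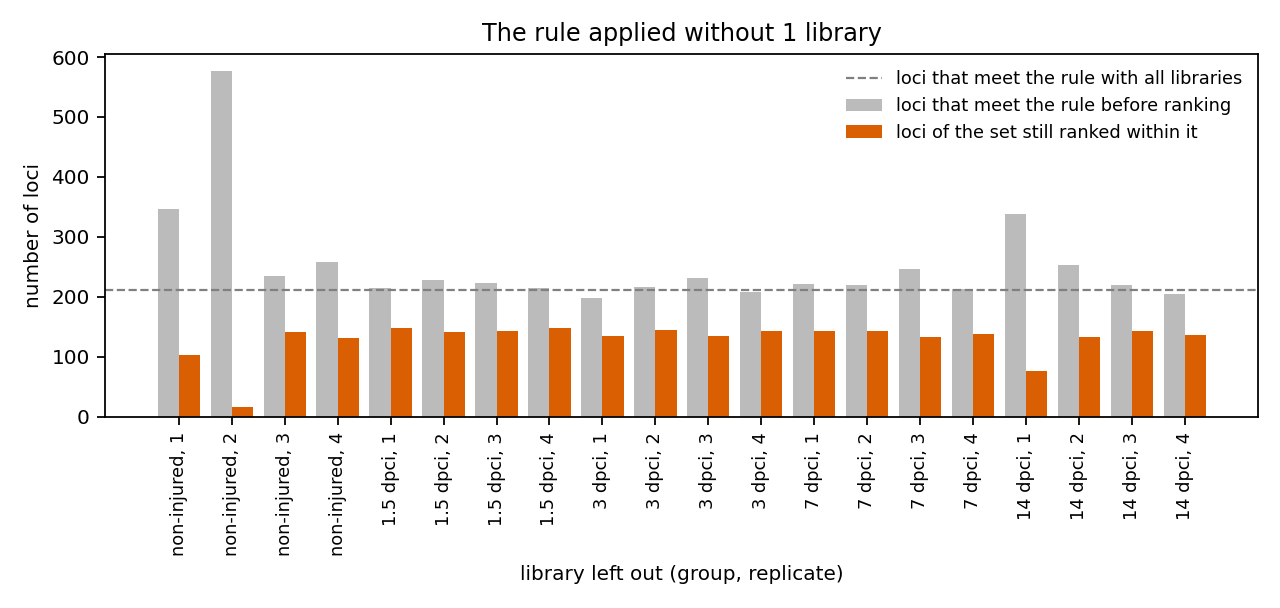
Number of loci that meet the conditions before ranking (grey) and number of the 150 loci that stay within the first 150 (orange) when 1 library is left out, named below by group and replicate, with the count from all libraries as a dashed line at 212. The library with the largest part is non-injured replicate 2, without which 576 loci meet the conditions and 16 of the 150 stay in.

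Around the threshold the values ran on without a step. Rank 150, the last taken, had 2681, 2922, 2230 and 2701 scaled reads in the 4 non-injured libraries, then 4971, 4099, 5857 and 5506 at 1.5 dpci. At 3 dpci this locus had 4155, 5936, 6047 and 4750, at 7 dpci 3449, 3247, 2927 and 4859, and at 14 dpci 3885, 3103, 3357 and 3917. Its rises were 0.95, 0.98, 0.44 and 0.44. Non-injured replicate 2 with 2922 and 7 dpci replicate 3 with 2927 were all but equal. Rank 151, the first left out, had 735.2 ± 46.0, 1428 ± 412.9, 1568 ± 513.4, 1230 ± 299.9 and 999.5 ± 123.9 scaled reads from non-injured to 14 dpci (SD, n = 4 each), with rises of 0.91, 1.04, 0.71 and 0.44. Both had a smallest rise of 0.44, and 19 members were under 0.5.

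The members moved together within groups to some degree. The deviations of the libraries from their group means correlated between 2 members with a mean r of 0.188 (median 0.202) over the 20 libraries, and 20.9% of the pairs were over 0.5. Between pairs of eligible loci the mean r was 0.025, and between the 169 raised loci with wider differences 0.228. All pairs share their libraries, and these values are a description. The choice used the lowest injured and the highest non-injured library of each locus, and its effect on r was not tested. Replicates were not more even in the members than elsewhere, with median SDs on the log2(value + 1) scale of 0.25, 0.22, 0.27, 0.29 and 0.23 from non-injured to 14 dpci, against 0.25, 0.21, 0.24, 0.25 and 0.25 for the eligible loci.

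Some members stood next to each other in the numbering of the loci, which was not used to choose them. The runs below were singled out after their values were seen. In all, 18 of the 150 lay in 7 runs whose members were at most 5 numbers apart, with 5 pairs of directly consecutive numbers. Neighbouring numbers may mean pieces of one transcript or overlapping units that share reads, and this was not tested. The longest run held 6 members within 16 consecutive numbers, ranks 23, 31, 39, 35, 63 and 88 in the order of their numbers. All 6 were highest at 7 dpci and lowest at 14 dpci, while 15.9% of the eligible loci were highest at 7 dpci. Their means at 7 dpci were only 0.0 to 0.15 above those at 3 dpci, with SEs of 0.18 to 0.21. None of these differences was called by limma, so that 7 dpci was not set apart from 3 dpci. Their rises were 1.20 to 1.60 at 1.5 dpci, 1.21 to 1.77 at 3 dpci, 1.32 to 1.92 at 7 dpci and 0.69 to 1.20 at 14 dpci.

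Rank 23, the first of the run, had 44.2, 47.4, 59.8 and 52.7 scaled reads in the 4 non-injured libraries, then 148.0, 142.9, 163.8 and 135.0 at 1.5 dpci. At 3 dpci it had 191.0, 194.3, 175.0 and 146.7, at 7 dpci 184.3, 179.7, 244.4 and 178.7, and at 14 dpci 82.3, 119.5, 138.4 and 141.2. Injured and non-injured libraries were well apart, and 14 dpci replicate 1 was the lowest injured library. Rank 35, in the middle of the run, had 85.9, 77.0, 114.1 and 117.3 scaled reads in the 4 non-injured libraries, then 278.6, 340.2, 264.1 and 293.5 at 1.5 dpci. Libraries at 3 dpci had 351.9, 240.5, 266.9 and 343.0, at 7 dpci 260.5, 350.6, 402.2 and 294.9, and at 14 dpci 141.9, 220.8, 218.4 and 218.9. At 14 dpci the other 3 libraries agreed closely and replicate 1 was low, and without that library the call of the F test (limma adjusted p = 0.0235) was lost (0.113), as it was with the side of the first component as a term (0.0606). Rank 39 had 74.2 ± 17.8 scaled reads in non-injured apexes and 189.7 ± 17.9, 224.7 ± 7.00, 238.5 ± 32.0 and 146.3 ± 32.2 from 1.5 to 14 dpci (SD, n = 4 each). Its F test call (limma adjusted p = 0.0178) was lost without 14 dpci replicate 1 or 2 (0.00582 to 0.0687 over 30 alternatives).

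The 10 other loci in the span were left out for their low level, none (0) averaging 100. All 10 had means above the non-injured mean at all 4 time points, 7 were highest at 7 dpci, and in 6 no injured library reached down to the non-injured ones. Among the eligible loci 15.9% were highest at 7 dpci and 2.35% had no such overlap. No share is given for loci averaging under 100, the level of these 10, so nothing is read from the counts. Their averages over the 20 libraries were 7.69 to 99.9 scaled reads. Between the 6 members the deviations from the group means correlated with r of 0.22 to 0.86 and a mean of 0.60 over the 20 libraries.

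**Figure D5:**
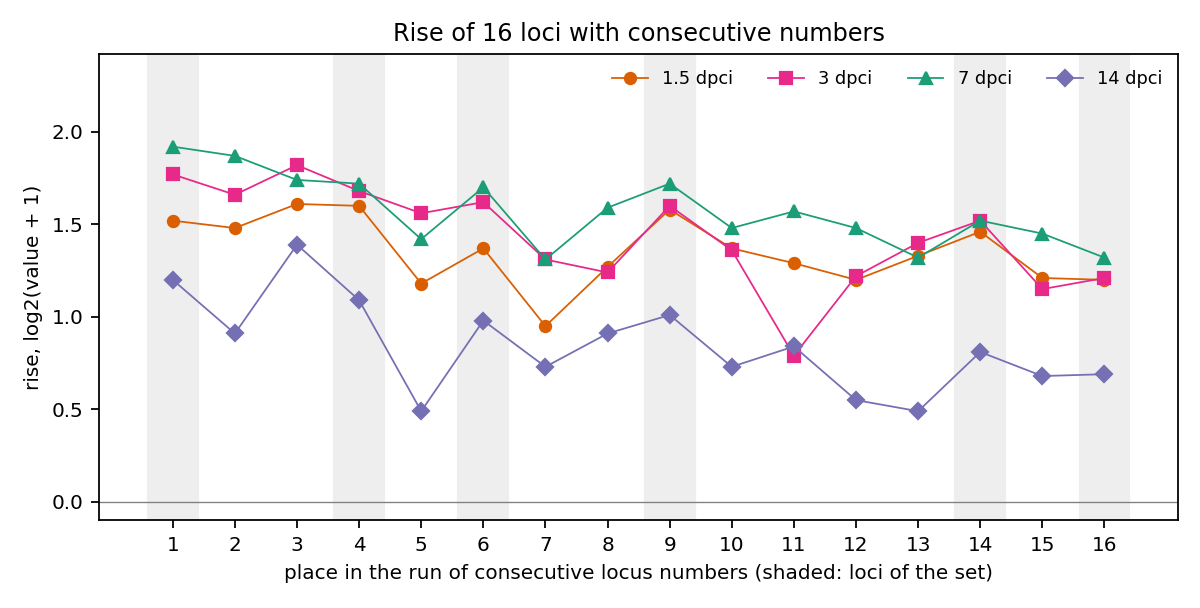
Rise over the non-injured mean on the log2(value + 1) scale of 16 loci with consecutive numbers, in the order of their numbers, with 1 line for each time point and the 6 loci of the set shaded. In the shaded loci 7 dpci is the highest, at 1.32 to 1.92, but by only 0.0 to 0.15 over 3 dpci. The lowest is 14 dpci, at 0.69 to 1.20.

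The other runs were pairs. Ranks 10 and 8 had consecutive numbers, were both highest at 7 dpci, with rises of 1.48, 1.77, 1.91 and 1.42 and of 1.58, 1.81, 1.88 and 1.46, and correlated with r of 0.83. Ranks 40 and 27 were both highest at 14 dpci, with rises of 1.07, 0.97, 1.11 and 1.39 and of 1.27, 1.14, 1.17 and 1.56, and correlated with r of 0.95. Rank 40 had 1430, 1427, 573.0 and 561.0 scaled reads at 7 dpci and rank 27 had 537.9, 474.5, 226.0 and 209.4, so that replicates 1 and 2 were high and replicates 3 and 4 low in both. Ranks 19 and 47, also consecutive and highest at 14 dpci, correlated with r of 0.89, ranks 44 and 32 with 0.74, ranks 76 and 29 with 0.64, and ranks 143 and 149 with 0.08.

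All 150 rises stayed above 0 at all time points under TMM rescaling, quantile normalization and scaling to library totals. The choice made this likely, since it required separated libraries and no member had a rise under 0.44. Nothing is read from it. Scaling to totals moved the median of the eligible loci by 0.38, 0.30, 0.13 and 0.08 at the 4 time points in turn, and the members' median rises of 1.45, 1.61, 1.12 and 0.91 under it are to be read against that shift.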

How the data were processed

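RNA was sequenced from 20 libraries of heart apexes in 5 groups of 4. Per the methods, the authors had stranded total RNA libraries made and sequenced, and the labels name GRCz10 as the genome build and Cuffdiff as the quantification tool. The deposited values are a signal: read counts per locus that the authors scaled by 1 factor for each library, without regard to length. The value of 1 read was found from low values in 19 columns, where 99.96% to 99.99% of values were whole reads within 0.1 read, and 7 dpci replicate 1 was used as normalized values only. The 27 pairs of replicates among these 19 libraries differed beyond sampling noise (chi-square per degree of freedom 12.4 to 70.0).

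Gene names fill 42278 of 66128 rows in an order of their own, and 23850 rows have none, so names were not used. The 62594 loci that were not 0 throughout were kept and tested on log2(value + 1) with limma 3.58.1 (trend and robust options, statmod 1.5.0, R 4.3.3) in one model of 5 groups, with Benjamini-Hochberg adjustment at 0.05. On this scale the changes of low loci come out too small. Alternatives were other scalings, pseudocounts of 0.1 and 5, a filter of 10 in 4 libraries, a replicate block, other controls, the side of the first component as a term, leaving out each library, and limma-voom and edgeR 4.0.16 on the recovered reads of 19 libraries. There edgeR called 6358, 6954, 2803 and 2555 loci higher at 1.5, 3, 7 and 14 dpci, against 8012, 8067, 4024 and 3679 by limma. The scripts were tested on simulated data.

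Members are named by rank: ranks 1 to 5, the last taken and first left out, and 2 each for the highest injured and lowest non-injured mean, the largest excess at each time point, the smallest range and the largest difference between pairs of non-injured libraries in either direction. The members, this naming and all tests were chosen with earlier results of these data known.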

Additional observations from a re-analysis of the deposited data

Results flagged for a closer look

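In 6 of 125 groups of 4 libraries looked at (24 loci and the median rise, in 5 groups each), 1 library lay far from the other 3, where chance gives about 6.2. The gap to the nearest library was 0.887 of the range of the group on the log2(value + 1) scale for rank 25 at 1.5 dpci (replicate 2 low), 0.975 for rank 35 at 14 dpci (replicate 1 low) and 0.836 for rank 59 in non-injured apexes (replicate 1 low). It was 0.973 for rank 62 at 14 dpci (replicate 2 low), 0.916 for rank 110 at 7 dpci (replicate 3 low) and 0.905 for the median rise of the members at 1.5 dpci (replicate 2 low).

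By the limma F test 65 members (43.3%) differed between injured time points, against 49.3% of the eligible loci. Higher at 3 than at 1.5 dpci were 11 (7.33%, eligible loci 7.34%). Lower at 7 than at 3 dpci were 36 (24.0%, eligible loci 10.1%), and 1 was lower at 14 than at 7 dpci (0.667%, eligible loci 0.704%). Only the share lower at 7 dpci was above that of the eligible loci, and 3 and 7 dpci lie on opposite sides of the first component. Among the named loci the limma adjusted p of the F test was 0.00506 for rank 1, 0.00606 for rank 22, 0.0235 for rank 35, 0.0178 for rank 39 and 0.00196 for rank 50. It was 0.00266 for rank 51, 0.00113 for rank 84, 0.00443 for rank 121, 0.000131 for rank 133 and 0.00747 for rank 150. With the side of the first component as a term the calls of ranks 39, 50, 84 and 121 were kept and the other 6 were lost.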

How the results depend on the processing

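No result changed direction under an alternative, though the choice of the loci largely set the direction of the rises. Of the counts and medians recomputed, 459 stayed within 1.5 times the count, or within 1 SD over libraries of the median, and 40 did not. Of the 150 members 77 were still taken with scaling to library totals (chosen after seeing the data), 76 without 14 dpci replicate 1, 16 without non-injured replicate 2, 9 with non-injured replicates 3 and 4 as controls, and 55 and 77 with limits of 0.5 and 2 on the injured means. Leaving out 1 library kept 16 to 148. Over the same omissions the members called higher than non-injured were 132 to 150, 143 to 148, 107 to 141 and 90 to 138 at 1.5, 3, 7 and 14 dpci. Requiring a fold change of 2 left 85 at 1.5 dpci, 72 at 7 dpci and 45 at 14 dpci. No count at 3 dpci and no share of all loci are given at this fold change, and these counts only describe the set. Controls 1 and 2 alone left 53 at 7 dpci and 30 at 14 dpci, while all loci called fell to 1035 and 517, against 4024 and 3679. The side of the first component as a term left 59 and 34 members, and 1086 and 553 of all loci.

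The F test called 49 to 74 members over the omissions, 0 with a 2-fold range and 21 with the side as a term, where among the named loci the calls of ranks 1, 22, 35, 51, 133 and 150 were lost (0.0585 to 0.343). Members higher at 3 than at 1.5 dpci numbered 7 with library totals (4.38% of all loci) and 17 by limma-voom (6.05% of all loci). They numbered 0 at 2-fold and 4 to 14 over the omissions. None was lower there in any omission (0 to 0). Members lower at 7 than at 3 dpci numbered 21 by edgeR, run without 7 dpci replicate 1 (5.28% of all loci). With the side as a term (chosen after seeing the data) they numbered 3 (0.249% of all loci). There were 0 at 2-fold and 24 to 41 over the omissions, and those higher numbered 0 to 1. At 14 against 7 dpci, members higher numbered 0 to 1 over the omissions, and members lower 0 to 2 and 0 each by limma-voom, by edgeR, with 8 libraries and at 2-fold. The counts of 0 at 2-fold were fixed beforehand by the limit of 1 on the injured group means. The median rise was 1.45 at 1.5 dpci and 1.61 at 3 dpci with library totals, and 0.95 and 1.17 at 1.5 dpci over controls 1 and 2 and over 3 and 4. Over the omissions it was 1.04 to 1.11, 1.25 to 1.41, 0.91 to 1.02 and 0.78 to 0.90. The ranges of counts over the omissions have no share of all loci beside them, and they are a description. The causes were not tested.

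Libraries with the same replicate number did not deviate together (mean r -0.006, above 0.1 in 1 of 40 pairs), and 4 of 20 libraries correlated best with their own number. With the replicate block 143, 147, 132 and 120 members were called higher than non-injured, against 12.1%, 12.3%, 6.02% and 5.25% of all loci. The F test then called 57 members, and 38.0% of all loci. Higher at 3 than at 1.5 dpci were 7 members, and 4.52% of all loci. Lower at 7 than at 3 dpci were 31 members, and 8.81% of all loci. Lower at 14 than at 7 dpci was 1 member, and 0.315% of all loci. The step at 14 dpci rests on few calls in the whole table, and low loci such as ranks 4 and 7 carry more counting error than the rest.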
